A study of Bos grunniens with 18 samples.

Results

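The BCL2 family decides, at the outer mitochondrial membrane, whether a cell lives or starts apoptosis. Guardians such as *BCL2*, *BCL2L1*, *BCL2A1* and *MCL1* hold back the effectors *BAX* and *BAK1*, which perforate the membrane and release cytochrome c. BH3-only proteins such as *BCL2L11* (BIM), *BID* and *BBC3* (PUMA) carry stress signals by binding the guardians or activating the effectors. In blood, neutrophils are known to depend on the short-lived MCL1 protein and resting lymphocytes on BCL2. The set described here was fixed by name as these 9 genes, and its members are the genes of the deposited table that carry one of the names. Of the 9 names, 6 have an entry among the 20607 genes listed, and all 6 passed the low-count filter that left 14508 genes for testing. *BCL2L1*, *BCL2A1* and *BID* have no entry under these names and were not analysed here.

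The data are RNA-seq libraries of whole blood from adult female yaks (*Bos grunniens*) aged 4 to 8 years, 6 libraries at each of 3 reproductive stages. Y-A is anestrus, Y-E is estrus and Y-P is pregnancy. The animals came from an artificially inseminated herd, per the study's methods, and the blood of 6 cows was followed through the stages. Estrus was induced with a progesterone pessary, cloprostenol and GnRH and was followed by timed insemination, so stage, hormone treatment and sampling date cannot be told apart. Blood went into EDTA tubes and TRIzol LS, with no cells separated, so every value is a mixture of red cell precursors, leukocytes and platelets. A lower value in such a mixture can mean fewer cells of a type or less RNA per cell, and these cannot be told apart here. Total counts per library ran from 30247267 to 48401076, so a count of 3, taken as the floor of detection, stood for 0.0604 to 0.107 CPM (counts scaled to the library total after TMM normalization). The lowest count of any member in any library was 51, for *BBC3*.

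Marker genes of the blood cell types moved between the stages, and their part in the members' values was not tested. CPM values were summed over the 7 neutrophil markers with an entry (of 11 listed). The sum was 5397 to 9700 in anestrus, 6749 to 13062 in estrus and 3388 to 6251 in pregnancy. In pregnancy vs. estrus 6 of the 7 had a log2 fold change below 0. Of these, edgeR called 5 lower at an adjusted p under 0.05. The 5 reticulocyte markers summed to 439 to 10579 CPM in anestrus, 92.6 to 4496 in estrus and 39.0 to 122 in pregnancy. All 5 were called lower in pregnancy than in anestrus by edgeR. Y-E replicate 6 stood apart from its stage, with 8.36% of its counts in 6 hemoglobin genes against 0.0899% to 0.713% in the other estrus libraries. The 9 T cell markers summed to 1262 to 1561 CPM in anestrus, 1188 to 1566 in estrus and 1352 to 2429 in pregnancy. All 9 had a log2 fold change above 0 in pregnancy vs. estrus, and edgeR called 4 of them higher. The 5 platelet markers tested all had a log2 fold change below 0 in both comparisons with pregnancy, and edgeR called 3 of them lower in each. edgeR called no marker of the monocyte, B cell, NK and cytotoxic or eosinophil lists in any of the 3 comparisons, with at most 2 of a list at an unadjusted p under 0.05. DESeq2 and limma each called 2 B cell markers in pregnancy vs. estrus, and DESeq2 called 1 monocyte marker in each comparison with pregnancy. In estrus vs. anestrus DESeq2 called 3 of the 7 neutrophil markers, against 65 of all genes, where edgeR and limma called 0. For the reticulocyte list in pregnancy vs. anestrus, DESeq2 called 3 and limma 4 of the 5. With the replicate number as a block, edgeR called 2 B cell markers in pregnancy vs. anestrus and 4 in pregnancy vs. estrus, 1 monocyte marker in each of these, and 2 reticulocyte markers in estrus vs. anestrus, where the fit without a block called 0. No marker with an entry was at or under the floor in every library of a stage except the platelet gene *GP1BB*.

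The 6 members spanned a wide range of transcript levels. Levels between genes were compared as FPKM, which scales the fragments of a gene by its length and the library's depth. *MCL1* was the most abundant, with a median of 377 FPKM over the 18 libraries (range 230 to 507), above 99.2% of the listed genes. *BAX* followed with a median of 215 FPKM (126 to 289), above 98.5% of the genes. These 2 ranges overlap, and one or the other was the highest member in every library. *BAK1* had a median of 17.5 FPKM, *BCL2L11* 12.3, *BCL2* 8.10 and *BBC3* 4.74, so that the guardian *BCL2* lay far below the guardian *MCL1* in whole blood. The ranges of neighbours in this order overlapped from *BAK1* down to *BBC3*. *BCL2* and *BBC3* varied most between libraries: the highest value was 4.85 times the lowest for *BCL2* and 5.07 times for *BBC3*, against 2.30 times for *BAX*.

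**Figure D1:**
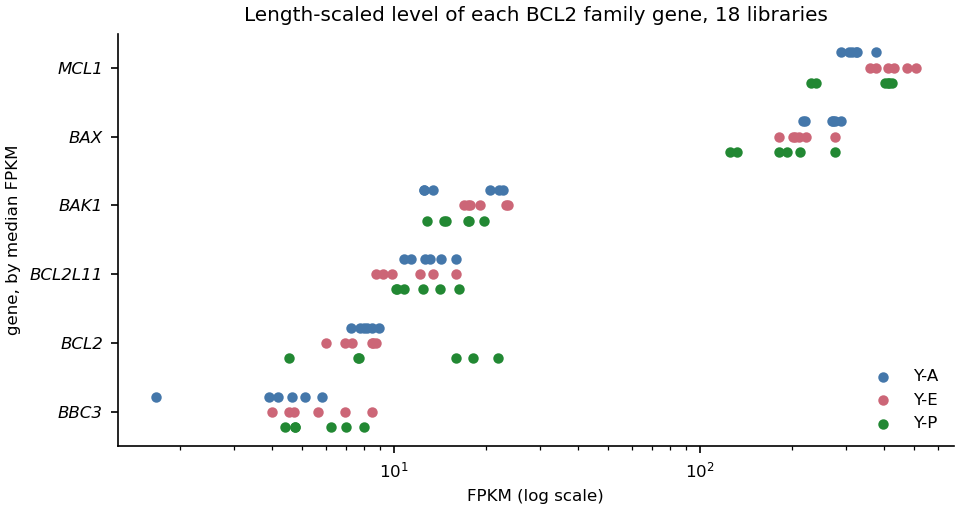
FPKM of each BCL2 family gene (log axis) in the 18 libraries, coloured by stage, with genes ordered by their median. *MCL1* and the *BAX* entry, which may also hold *FTL* reads, lie between 126 and 507 FPKM. *BCL2* spreads from 4.54 to 22.0 FPKM with its 3 highest values in pregnancy.

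With 6 members, the number called was near what the share over all tested genes gives, and is not read as a result about the family. The threshold was an adjusted p under 0.05 in edgeR's quasi-likelihood test, and genes that pass it are referred to as called. In estrus vs. anestrus 0 of the 6 members were called, against 0.0207% of all tested genes, and 1 had an unadjusted p under 0.05. In pregnancy vs. anestrus 0 were called, against 5.83% of all genes, 2.22% higher and 3.61% lower, and again 1 had an unadjusted p under 0.05. In pregnancy vs. estrus 1 was called, *MCL1*, which was lower in pregnancy, against 14.4% of all genes, 5.77% higher and 8.68% lower. DESeq2 called 0, 1 and 1 members in these comparisons, against 65, 1489 and 2760 of all genes. Limma on log2(FPKM + 1) called 0, 1 and 0, against 4, 2116 and 3070 of all genes. When the log2 fold change also had to reach 1 in size, no member passed by edgeR in any comparison, against 0.0138%, 1.43% and 2.67% of all genes. The joint test for any difference among the 3 stages called 0 members by edgeR, with 2 at an unadjusted p under 0.05, against 11.0% of all genes. In the same test DESeq2 called 2 members, against 2479 of all genes, and limma 0, against 2627. With the replicate block edgeR called 1 (*MCL1*), against 2075 of all genes. The members' median log2 fold change was 0.04 in estrus vs. anestrus, −0.18 in pregnancy vs. anestrus and −0.27 in pregnancy vs. estrus, and that of all tested genes was −0.01, 0.03 and 0.04. The 3 comparisons share libraries in pairs, so their values do not count as independent of each other.

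**Figure D2:**
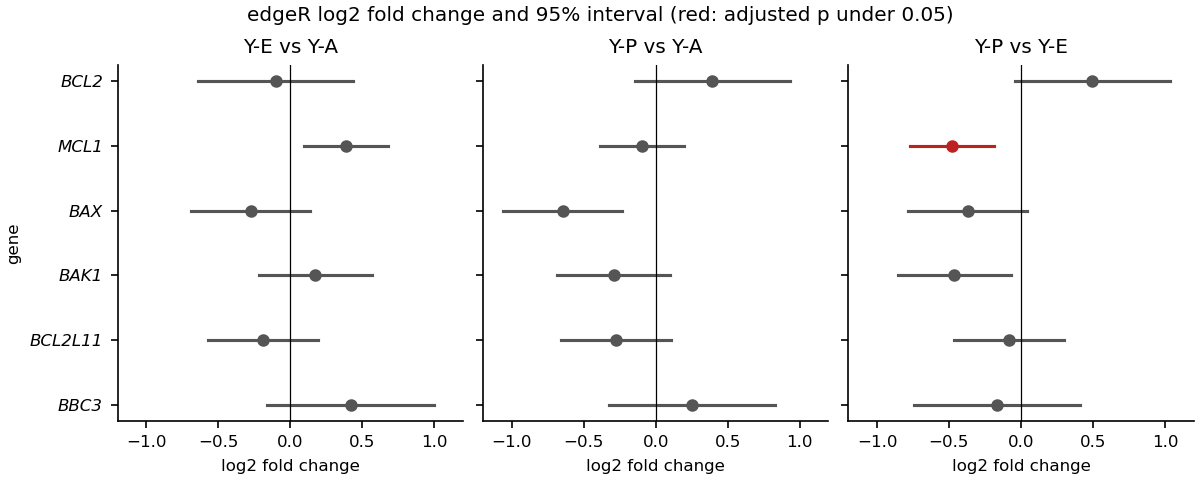
Log2 fold change with its 95% interval for each gene in the 3 comparisons, from the edgeR fit over 18 libraries. *MCL1* at −0.48 in pregnancy vs. estrus is the 1 value with an adjusted p under 0.05 (red), while *BAX* at −0.64 in pregnancy vs. anestrus has an interval below 0 but an adjusted p of 0.0590.

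Among the guardians, *MCL1* (ENSBGRG00000000962, chromosome 3, 21035651 to 21038385, minus strand of the build used in the table) was highest in estrus. Its lowest, median and highest values were 612, 712 and 871 CPM in anestrus, 802, 949 and 1093 CPM in estrus, and 490, 746 and 807 CPM in pregnancy. All 6 estrus libraries lay above the anestrus median, and 5 of the 6 pregnancy libraries lay below every estrus library. *MCL1* fell by 0.48 on the log2 scale from estrus to pregnancy (SE 0.14, 95% interval −0.77 to −0.19; edgeR adjusted p = 0.0273), so the level was 1.40-fold higher in estrus. The estrus value exceeded anestrus by 0.39 on the log2 scale (SE 0.14, 95% interval 0.09 to 0.68), which did not pass the adjustment over all genes (edgeR adjusted p = 0.576). Pregnancy and anestrus differed by −0.09 on the log2 scale (SE 0.14, 95% interval −0.39 to 0.20; edgeR adjusted p = 0.741), with the sign turning under library-size scaling.

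The call of *MCL1* in pregnancy vs. estrus depended on single libraries. It was lost in 5 of the 18 fits that left out 1 library each, those without Y-E replicate 3, 5 or 6 or Y-P replicate 2 or 3, where edgeR's adjusted p was 0.0531 to 0.0673. The direction held in all 28 alternatives, with log2 fold changes of −0.54 to −0.31 and adjusted p of 0.00662 to 0.178. Y-P replicates 2 and 3, at 490 and 520 CPM, were below every other library of the series, while the other pregnancy libraries at 736 to 807 CPM lay within the range of anestrus. The sum of the neutrophil markers was also highest in estrus, with medians of 5661, 10675 and 4665 CPM in anestrus, estrus and pregnancy. All 7 had a log2 fold change above 0 in estrus vs. anestrus, while 6 were below 0 and 1 above 0 in pregnancy vs. estrus. Y-E replicate 6, with the highest *MCL1* (1093 CPM), had the lowest neutrophil sum of estrus (6749 CPM). This is the library that stood apart by its hemoglobin share (8.36%). Within the stages the deviations of *MCL1* and of the neutrophil list gave r = −0.23 over the 18 libraries (rho = −0.25; exact permutation p = 0.408, adjusted p = 0.598). The sign differed between stages, with r of 0.30 in anestrus, −0.38 in estrus and −0.57 in pregnancy. The part of neutrophil RNA in the *MCL1* value was not tested.

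*BCL2* (ENSBGRG00000019339, chromosome 21, 60830336 to 61057004, minus strand) varied most within pregnancy, and the difference in spread was not tested. Its lowest, median and highest values were 6.20, 6.89 and 7.68 CPM in anestrus, 5.18, 6.61 and 7.14 CPM in estrus, and 3.71, 8.60 and 15.1 CPM in pregnancy. The SD was 0.640 CPM in anestrus, 0.747 CPM in estrus and 4.55 CPM in pregnancy, with n = 6 in each. Y-P replicates 1, 4 and 6 had 15.1, 11.0 and 12.9 CPM, above every anestrus and estrus library. Y-P replicates 2, 3 and 5 had 6.20, 3.71 and 5.62 CPM, and each was below every anestrus library when compared on unrounded values. Pregnancy exceeded anestrus by 0.39 on the log2 scale (SE 0.26, 95% interval −0.14 to 0.93; edgeR adjusted p = 0.385) and estrus by 0.50 (SE 0.26, 95% interval −0.04 to 1.03; edgeR adjusted p = 0.212). Estrus and anestrus differed by −0.10 (SE 0.26; edgeR adjusted p = 0.999). A gene without a name on the opposite strand, ENSBGRG00000019385, overlaps *BCL2* and had 0 to 46 counts per library, against at least 164 for *BCL2*. Whether the counting used strand is not given in the sources used here.

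**Figure D3:**
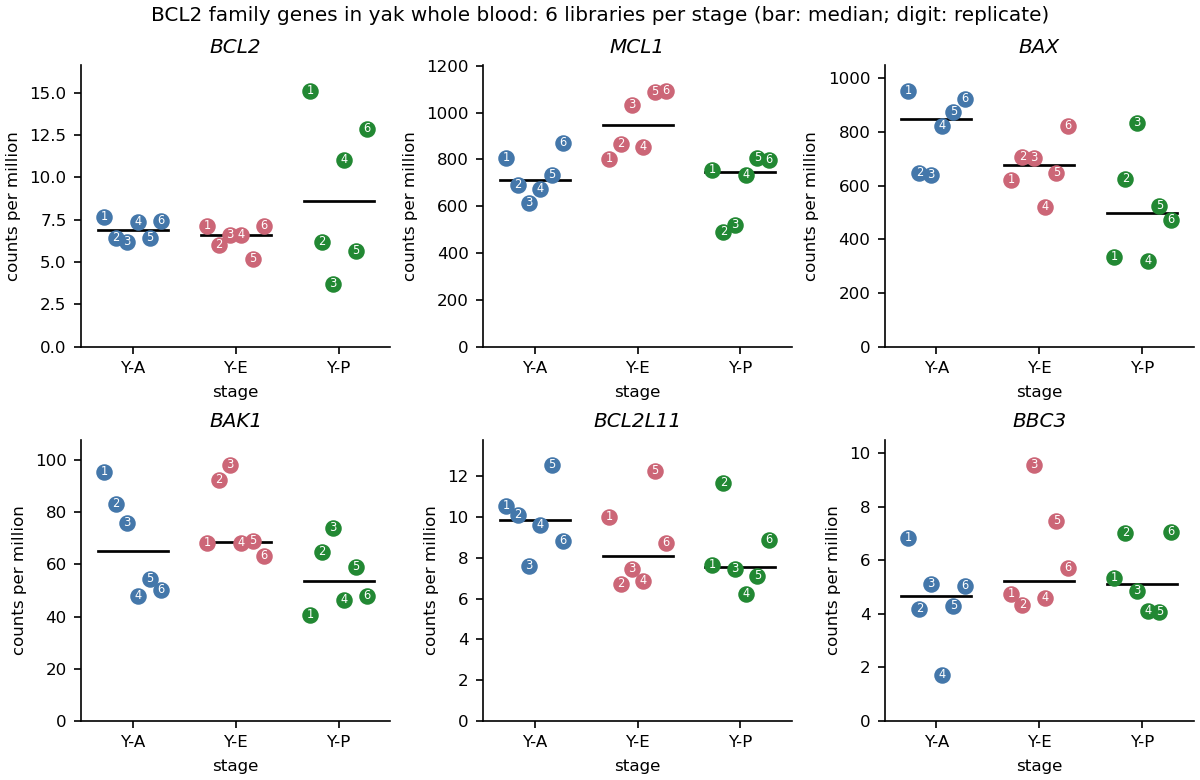
CPM of the 6 BCL2 family genes in each library (digit, replicate number) by stage, with the median as a bar and axes that start at 0. *MCL1* is highest in estrus (802 to 1093 CPM), *BAX* in 5 of 6 pregnancy libraries lies below every anestrus library, and *BCL2* spreads from 3.71 to 15.1 CPM within pregnancy.

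Among the effectors, *BAX* (ENSBGRG00000018680, chromosome 20, 59640224 to 59652014, minus strand) had its lowest values in pregnancy. Its entry in the table carries 3 gene ontology terms on iron and the KEGG pathways ferroptosis and mineral absorption, which belong to ferritin rather than to a pore-forming protein. No entry is named *FTL*, the ferritin light chain gene, which is the immediate neighbour of *BAX* in the RefSeq assembly Bosgru_T2T1.0, so this value may hold reads of both genes, which cannot be told apart. The lowest, median and highest values were 639, 849 and 953 CPM in anestrus, 519, 675 and 823 CPM in estrus, and 318, 498 and 833 CPM in pregnancy. In pregnancy, 5 of 6 libraries were below every anestrus library, and replicate 3, at 833 CPM, was the exception.

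The difference in *BAX* between pregnancy and anestrus was −0.64 on the log2 scale (SE 0.20, 95% interval −1.06 to −0.23), with an edgeR adjusted p of 0.0590. With the replicate number as a block it was −0.70 (edgeR adjusted p = 0.0420), against 8.84% of all genes called in that fit, and with Y-E replicate 6 also left out it was −0.71 (edgeR adjusted p = 0.0520). Without Y-P replicate 3 it was −0.83 (edgeR adjusted p = 0.0162). Over the 28 alternatives it ranged from −0.83 to −0.48, with adjusted p from 0.0162 to 0.113, and it was called in 4 of them. *BAX* differed by −0.27 between estrus and anestrus (SE 0.20; edgeR adjusted p = 0.985) and by −0.37 between pregnancy and estrus (SE 0.20; edgeR adjusted p = 0.226). Without Y-P replicate 3 the latter was −0.56 (edgeR adjusted p = 0.0466; range over the alternatives 0.0466 to 0.403). Reticulocyte markers were also lowest in pregnancy, and within the stages the deviations of *BAX* and of the reticulocyte list gave r = 0.50 over the 18 libraries (rho = 0.63; exact permutation p = 0.00833, adjusted p = 0.133). The part of reticulocyte RNA in the *BAX* value was not tested.

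*BAK1* (ENSBGRG00000022225, chromosome 24, 29013133 to 29021091, plus strand), the other effector, ranged over 47.7, 65.2 and 95.5 CPM in anestrus, 63.2, 68.7 and 98.1 CPM in estrus, and 40.7, 53.6 and 74.1 CPM in pregnancy, given as lowest, median and highest. Of the 6 pregnancy libraries, 4 lay below every estrus library. Pregnancy differed from estrus by −0.46 on the log2 scale (SE 0.19, 95% interval −0.86 to −0.07; edgeR adjusted p = 0.103). With the replicate number as a block, *BAK1* passed (−0.46; edgeR adjusted p = 0.0362; range over the alternatives 0.0362 to 0.236), in a fit that called 2608 genes in all, but not when Y-E replicate 6 was also left out (edgeR adjusted p = 0.0680). Pregnancy vs. anestrus gave −0.29 (SE 0.19; edgeR adjusted p = 0.378) and estrus vs. anestrus gave 0.17 (SE 0.19; edgeR adjusted p = 0.999). Anestrus held a wide spread, with replicates 1, 2 and 3 at 95.5, 83.4 and 75.9 CPM and replicates 4, 5 and 6 at 47.7, 54.4 and 50.3 CPM.

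Of the BH3-only genes, neither *BCL2L11* nor *BBC3* had an unadjusted p under 0.05 in any comparison. *BCL2L11* (ENSBGRG00000026760, chromosome 9, 18400791 to 18457938, minus strand), whose protein binds every guardian, had lowest, median and highest values of 7.61, 9.86 and 12.6 CPM in anestrus, 6.70, 8.08 and 12.2 CPM in estrus, and 6.24, 7.54 and 11.7 CPM in pregnancy. The stages overlapped, with log2 differences of −0.19 in estrus vs. anestrus, −0.28 in pregnancy vs. anestrus and −0.08 in pregnancy vs. estrus, each with an SE of 0.18 (edgeR adjusted p = 0.999, 0.397 and 0.808). An unnamed gene on the same strand, ENSBGRG00000026761, overlaps *BCL2L11* and had 72 to 198 counts per library, so its reads and those of *BCL2L11* could have been split between the 2 entries.

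*BBC3* (ENSBGRG00000015056, chromosome 20, 61222342 to 61233722, plus strand), a p53 target, had lowest, median and highest values of 1.71, 4.68 and 6.84 CPM in anestrus, 4.32, 5.23 and 9.56 CPM in estrus, and 4.07, 5.10 and 7.07 CPM in pregnancy. The single low value was Y-A replicate 4, and the other 17 libraries lay at 4.07 CPM or above. The log2 differences were 0.42 in estrus vs. anestrus, 0.25 in pregnancy vs. anestrus and −0.17 in pregnancy vs. estrus, each with an SE of 0.28 (edgeR adjusted p = 0.948, 0.635 and 0.743). The 95% interval ran from −0.32 to 0.83 in pregnancy vs. anestrus and from −0.74 to 0.41 in pregnancy vs. estrus.

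The balance between survival and death transcripts was expressed as the log2 ratio of FPKM within a library, as a description with no test. *BCL2* to *BAX* was −5.21 to −4.78 in anestrus, −5.09 to −4.41 in estrus and −5.93 to −2.59 in pregnancy, with medians of −5.00, −4.92 and −3.99. In pregnancy, replicates 1, 4 and 6 had −2.59, −2.97 and −3.32, above every library of the other stages, while replicate 3 had the lowest ratio of the series at −5.93. These are the 3 pregnancy libraries with the highest *BCL2*, and by CPM they also held the 3 lowest *BAX* values of the series, 334, 318 and 474 CPM. In FPKM, which enters the ratio, Y-E replicate 4 (181 FPKM) lay just below Y-P replicate 6 (182 FPKM). Y-P replicates 1, 4 and 6 were likewise the 3 lowest in *BAK1* within pregnancy, with 40.7, 46.2 and 48.1 CPM. With *BAK1* in place of the ambiguous *BAX* entry, the same 3 libraries had 0.77, 0.13 and 0.30, the only values above 0 among the 18, and replicate 3 was again the lowest at −2.12. The medians of *BCL2* to *BAK1* were −1.15 in anestrus, −1.35 in estrus and −0.53 in pregnancy.

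**Figure D4:**
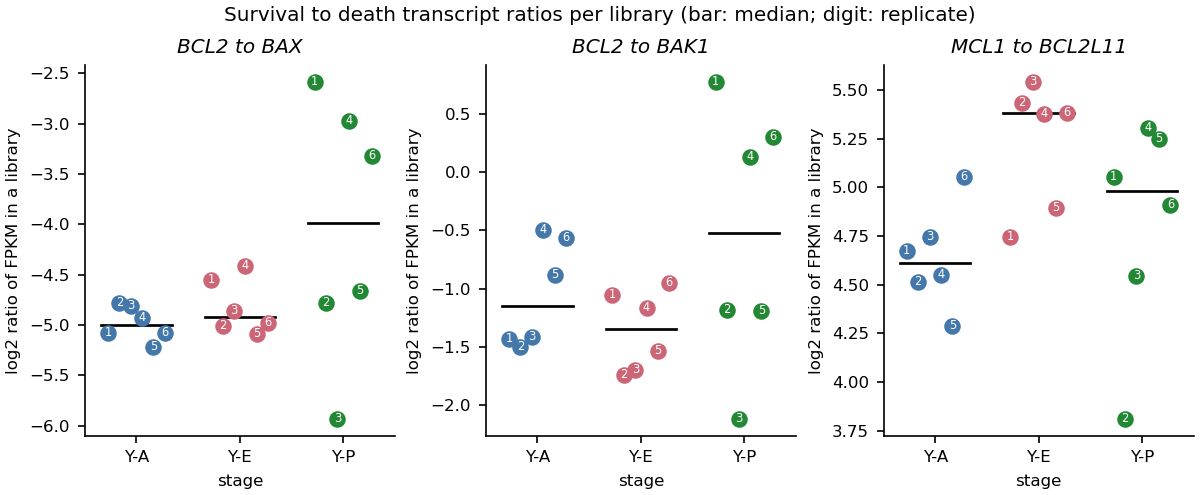
Log2 ratio of FPKM between a survival gene and a death gene in each library (digit, replicate number), with the stage median as a bar. Y-P replicates 1, 4 and 6 have the highest *BCL2* to *BAX* ratios (−3.32 to −2.59) and the highest *BCL2* to *BAK1* ratios (0.13 to 0.77) of the 18 libraries.

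*MCL1* to *BCL2L11* was 4.29 to 5.05 in anestrus, 4.75 to 5.54 in estrus and 3.81 to 5.30 in pregnancy, with medians of 4.61, 5.38 and 4.98. Y-P replicate 2 had the lowest ratio of the series at 3.81, with the lowest *MCL1* and the highest *BCL2L11* of its stage. The ratio of *BCL2L1* to *BAX* was not computed, since *BCL2L1* has no entry under that name.

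The members' deviations from the stage mean were compared with those of 8 marker lists, 48 relations in all, by exact permutation over the 720 joint orders of the replicate numbers, whose smallest possible p is 0.00139. No relation passed the Benjamini-Hochberg adjustment, and 5 had an unadjusted p of r under 0.05. *BBC3* and the monocyte list gave r = 0.72 (exact permutation p = 0.00278, adjusted p = 0.0667) and rho = 0.61 (exact permutation p = 0.00556, adjusted p = 0.0889), and r was 0.67 without the 2 most distant libraries. *MCL1* and the B cell list gave r = −0.69 (exact permutation p = 0.00278, adjusted p = 0.0667) and rho = −0.77 (exact permutation p = 0.00417, adjusted p = 0.0889), with r = −0.63 without the 2 most distant libraries. This relation was negative within every stage, at −0.77, −0.76 and −0.71 in anestrus, estrus and pregnancy. *BCL2L11* and the NK and cytotoxic list gave r = 0.62 (exact permutation p = 0.0111, adjusted p = 0.133) and rho = 0.71 (exact permutation p = 0.00556, adjusted p = 0.0889), with r = 0.75 without the 2 most distant libraries. *BAX* and the monocyte list gave r = 0.36 (exact permutation p = 0.0319, adjusted p = 0.307) and rho = 0.42 (exact permutation p = 0.0333, adjusted p = 0.267), with r = 0.28 without the 2 most distant libraries. The relation of *BAX* to the reticulocyte list, given above, was the fifth.

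**Figure D5:**
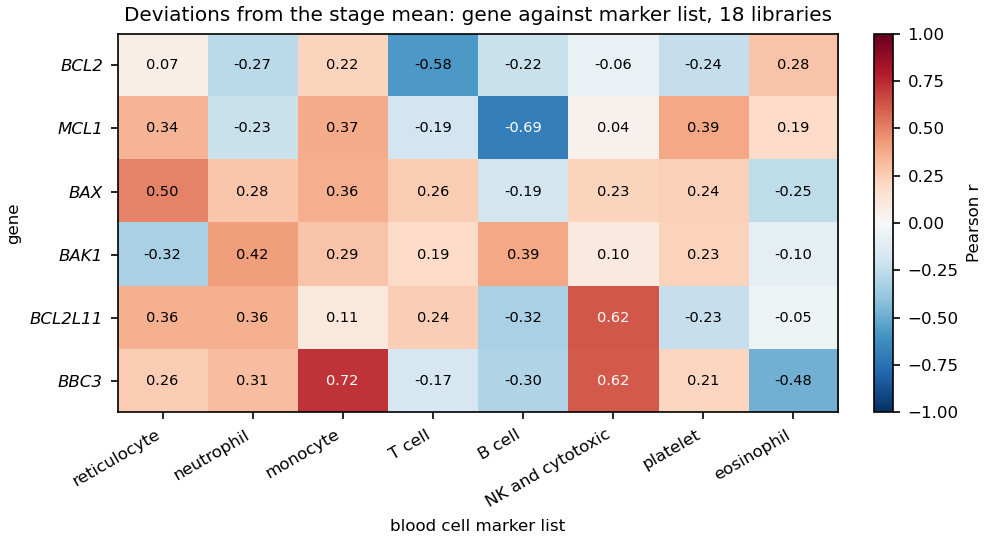
Pearson r between the deviation of each gene (log2 CPM) from its stage mean and that of the mean of each blood cell marker list, over 18 libraries. The extreme values are *BBC3* with monocyte markers (0.72) and *MCL1* with B cell markers (−0.69), and no relation passed the adjustment over the 48.

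The genes whose log2 CPM followed each member most closely over the 18 libraries were taken by Pearson r, as a measure of likeness only. For *MCL1* these were *AKIRIN2* (0.93), *EMB* (0.93) and *SNX18* (0.90). *BAK1* was closest to *BBLN* (0.91), *YIF1B* (0.91) and *OGFR* (0.90), and *BAX* to ENSBGRG00000023416 (0.90), *STMP1* (0.89) and ENSBGRG00000023445 (0.88). *BCL2* was closest to ENSBGRG00000012093 (0.86) and *PPP4R3A* (0.84). *BBC3* was closest to *CHPF2* (0.87), *ZNF335* (0.86) and *PIK3R5* (0.85). The gene closest to *BCL2L11* was ENSBGRG00000026761 (0.87), the one that overlaps it, followed by *ATF3* (0.78) and *ACKR2* (0.75). No member was among the 3 closest genes of another member.

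Of 14 further BCL2 family genes, 7 had an entry and were tested, and edgeR called 0 of the 7 in every comparison, with 1, 0 and 1 at an unadjusted p under 0.05 in estrus vs. anestrus, pregnancy vs. anestrus and pregnancy vs. estrus. Of all 14508 tested genes, 0.0207%, 5.83% and 14.4% were called and 900, 3299 and 4246 had an unadjusted p under 0.05. DESeq2 called 1 of the 7 in pregnancy vs. estrus, against 19.0% of all genes. Limma called none in the 3 comparisons, against 0.0276%, 14.6% and 21.2%. *BOK*, the third effector, was at 0 to 0.276 FPKM, far below *BAK1* and the ambiguous *BAX* entry. *PMAIP1* (NOXA), a BH3-only gene whose protein binds MCL1, had median levels of 28.7 FPKM in anestrus, 28.4 in estrus and 20.9 in pregnancy, above the levels of *BCL2L11* and *BBC3*. Its log2 difference of pregnancy from estrus was −0.27 (SE 0.27; edgeR adjusted p = 0.551).

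Upstream and downstream of the family, 5 lists with 65 genes in all, the 14 above included, gave 48 tested genes, of which 0, 1 and 4 were called in the 3 comparisons (0%, 2.08% and 8.33%). Each share was below that of all tested genes. At an unadjusted p under 0.05 there were 2, 9 and 13. DESeq2 called 0, 2 and 6 of these genes, limma 0, 5 and 8, and edgeR with the replicate block 0, 4 and 6. Among 7 caspase inhibitors and their antagonists, 1 was called: *XIAP*, which blocks executioner caspases, was lower in pregnancy than in estrus by a log2 difference of −0.50 (SE 0.13; edgeR adjusted p = 0.0170). The death receptor *TNFRSF1A*, the receptor for tumour necrosis factor, was the 1 call among 9 death receptors and adaptors, at −0.84 in pregnancy vs. estrus (SE 0.19; edgeR adjusted p = 0.00653). With the block, 1 caspase inhibitor was called in pregnancy vs. anestrus and 2 in pregnancy vs. estrus. The call of *XIAP* was lost with limma and with library-size scaling.

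Of the 15 tested upstream regulators of the family, 2 were called, 1 in each comparison with pregnancy, and with the replicate block 3 were called in pregnancy vs. anestrus and 2 in pregnancy vs. estrus. *FOXO3*, a transcription factor known to activate *BCL2L11* and *BBC3*, had 118 to 161 CPM in estrus and 70.2 to 112 CPM in pregnancy, with no overlap, and a log2 difference of −0.69 (SE 0.15; edgeR adjusted p = 0.00640). *TP73*, a relative of p53, was higher in pregnancy than in anestrus by 0.76 (SE 0.19; edgeR adjusted p = 0.0253), at 7.62 to 13.2 CPM against 4.18 to 8.76 CPM. The call of *TP73* was lost without Y-A replicate 5 or 6 or Y-P replicate 2 or 5, and when only these 2 stages were fitted. *MCL1* thus fell from estrus to pregnancy beside *XIAP*, *TNFRSF1A* and *FOXO3*, and these include genes that favour and genes that oppose cell death.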

How the data were processed

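RNA-seq of whole blood was analysed in 18 libraries, grouped by sample title as anestrus (Y-A), estrus (Y-E) or pregnancy (Y-P). The submitters' processing notes name cutadapt 1.9, HISAT2 2.2.1 and StringTie 2.1.6. The authors aligned the reads to the *Bos grunniens* genome under Ensembl identifiers and deposited FPKM values, normalized by exon length and mapped reads. The authors also deposited whole-number counts per gene, not normalized, and how these were made is not given in the sources used here. Columns with the authors' own comparisons were not used. The floor of detection, based on counts, covers counting error only. The intervals of the fold changes came from the edgeR quasi-likelihood fit and include the spread between libraries.

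The count test was edgeR 4.0.16 under R 4.3.3 (TMM, filterByExpr, two-sided quasi-likelihood test, stage as the only factor over 18 libraries), with Benjamini-Hochberg adjustment over all tested genes. Differences are log2 fold changes of the first stage named minus the second, and CPM follow TMM normalization. DESeq2 1.42.0, limma 3.58.1 on log2(FPKM + 1), other scalings, no low-count filter, a replicate block and each library left out were the alternatives. On data simulated for Y-P vs. Y-A with 14134 genes, 62 of 100 genes with an absolute log2 fold change of 1 and 94 of 100 with 2 were called, and 10 of 13934 unchanged genes. The changed genes were drawn from those above a mean of 1 CPM, with the same spread in every stage and no cow effect. Changes smaller than 1 were not simulated, so these rates do not give the power for the members' differences. Tables and figures were made with Python 3.11.15, numpy 2.4.6, pandas 2.3.3, scipy 1.17.1 and matplotlib 3.10.9.

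The members and lists were chosen with earlier results of these data known. All members are named. From the other lists, genes called in a comparison (at most 5 per list and comparison) and the only genes of their kind are named, and for each member the 3 genes with the highest Pearson r. Some results that this rule covers are not reported here. *PMAIP1* was named outside this rule, after its values were seen. The markers came from 8 lists for reticulocytes, neutrophils, monocytes, T cells, B cells, NK and cytotoxic cells, platelets and eosinophils.

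The study's methods state that 6 cows were followed, but no source ties a replicate number to a cow, and numbers were treated as marking the cows. Deviations from the stage means correlated between libraries with the same number by 0.110 to 0.515 between anestrus and estrus, −0.0492 to 0.369 between anestrus and pregnancy and −0.0544 to 0.400 between estrus and pregnancy. The means were 0.277, 0.136 and 0.140. Of the 6 libraries of the first stage named, 6, 4 and 3 correlated best with their own number in the second stage. Where the block changed the call of a member, its value stands beside the result. The fit without a block ignores the cow, and where samples are technical repeats the p-values measure only the spread between them.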

Additional observations from a re-analysis of the deposited data

How the results depend on the processing

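Of the 504 log2 fold changes of members recomputed under 28 alternatives each, 483 kept their direction and their side of the threshold, 6 passed it only in the alternative, 8 lost it and 7 turned in sign. None of the 7 was called. *MCL1* in Y-P vs. Y-A was 0.083 with library-size scaling and 0.089 with limma, *BCL2L11* in Y-P vs. Y-E was 0.061 with library-size scaling, 0.098 with limma and −0.21 to 0.040 with 1 library left out, above 0 without Y-E replicate 5, and *BBC3* in Y-P vs. Y-E was 0.040 with limma and −0.26 to 0.011 with 1 library left out, above 0 without Y-E replicate 3. Library-size scaling moved the median log2 fold change of all genes from 0.03 to 0.19 in Y-P vs. Y-A and from 0.04 to 0.18 in Y-P vs. Y-E.

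Members called in Y-P vs. Y-A numbered 1 (*BAX*) with the replicate block, DESeq2 and limma, against 8.84%, 10.3% and 14.6% of all genes. With 1 library left out they numbered 0 to 1, against 2.63% to 7.36%. In Y-P vs. Y-E they numbered 2 (*MCL1* and *BAK1*) with the replicate block, against 2608 of all genes. They numbered 0 with library-size scaling, with limma and with only the 2 stages fitted, against 2553, 3070 and 1747 of all genes. They numbered 0 to 1 with 1 library left out, against 9.37% to 15.7%. In the joint test they numbered 2 with DESeq2, against 17.1% of all genes, 1 with DESeq2 size factors, against 11.1%, and 1 with the replicate block, against 14.3%. With the block and Y-E replicate 6 left out, an alternative added after seeing the data, 1 member was called, against 12.3%. With 1 library left out, 0 to 1 were called, against 7.48% to 11.7%. The block changed no call in Y-E vs. Y-A. The cause of these changes was not tested.

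Genes called in any comparison numbered 0 to 1 for the further BCL2 family, 1 to 2 for the caspase inhibitors, 1 to 2 for the death receptors and 1 to 4 for the upstream regulators with 1 library left out, and 2 caspase inhibitors and 4 upstream regulators with the replicate block. With 1 library left out, 0.0204% to 0.157% of all genes were called in Y-E vs. Y-A, 2.63% to 7.36% in Y-P vs. Y-A and 9.37% to 15.7% in Y-P vs. Y-E. The mean log2 ratio of *BCL2* to *BAX* in Y-E minus Y-A changed from 0.17 to −0.31 when *BAK1* replaced *BAX*, also added after seeing the data. No member name had more than 1 entry, so summing entries gave no values. With 6 libraries a stage, the interval of a *BBC3* or *BCL2* difference spanned about 1 on the log2 scale.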
